A study of Mus musculus with 32 samples.

Results

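The genes described here are the microglial receptor Trem2, the signalling chain below it and further mouse counterparts of Alzheimer risk genes: Trem2, Tyrobp, Syk, Plcg2, Inpp5d, Cd33, Bin1, Picalm, Sorl1 and Abi3. They were fixed by name, 10 of the 55341 gene symbols in the count tables, and every one had a row. RNA of the 10 genes was counted as UMIs (unique molecular identifiers, each standing for 1 captured RNA molecule read at its 3′ end). In the 5606 cells kept, the genes held between 25 UMIs (Abi3) and 10711 UMIs (Tyrobp). Gated microglia, meaning cells that showed microglial markers and few markers of any other type, were 46.8% of the cells kept. They carried 69.4 to 81.6% of the UMIs of 9 of the genes, Abi3 among them on 18 of its 25 UMIs. Of the Sorl1 UMIs they carried 21.8%.

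Cortex and hippocampus were taken from 16 female mice at 15 months of age, and each region of each mouse gave its own library, 32 in all. WT-vehicle (5 mice) were wild-type mice on plain drinking water, WT-PMX205 (3 mice) received the C5aR1 antagonist PMX205 in the water, and Tg2576-vehicle and Tg2576-PMX205 (4 mice each) carried a human APP transgene. PMX205 was given for 12 weeks at about 2 to 8 mg per kg per day. Microglia and astrocytes were enriched on anti-CD11b and anti-ACSA-2 beads before the cells were encapsulated. The study calls the transgenic line Tg2576, which overexpresses mutant human APP in neurons under the hamster prion protein promoter, while the strain labels name an Arctic model. Those strain labels also name a constitutive C5ar1 knockout in 5 mice and C5a overexpression under the GFAP promoter in 5 others, and in 2 mice (WT-vehicle mouse 4 and Tg2576-vehicle mouse 3) they contradict the genotype label. C5ar1 had 15 UMIs in gated microglia of mice labelled as knockouts, at 0 to 63.6 CPM (UMIs per 1000000 UMIs of the same cells), and 0 to 74.0 CPM in mice with neither label. The groups used here follow the genotype label and the treatment label.

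Library totals ran from 37205 to 1072049 UMIs with a median of 207120. Gating gave 2624 microglia (median 887.5 UMIs a cell), 1202 astrocytes (1066.5), 225 mural cells and 167 endothelial cells, and 1333 cells met no gate. All 14 microglial gate markers were higher in gated microglia than in gated astrocytes, by 7.52- to 18.4-fold, which is not independent of the gate that used them. Barcodes recurred between libraries: 18 were found in all 32, and 295 of the 2624 microglia had a barcode seen in another library. In 4 mice (39.05 to 77.2% of barcodes, against at most 5.34% in the rest) many barcodes differed from another of the same library by the first base alone. Each mouse was 1 replicate. WT-PMX205 mouse 3 had 15 gated microglia and entered no fit of microglia, so that this group had 2 mice in those fits. In gated microglia the 12 astrocyte markers together held 1443 to 5945 CPM in WT-vehicle mice. In WT-PMX205 mice they held 1613 to 3323 CPM, in Tg2576-vehicle mice 1618 to 3658 CPM and in Tg2576-PMX205 mice 1630 to 3040 CPM, with none of the 12 at 0. The ranges overlapped, and the part of astrocyte RNA in the results on microglia was not tested.

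Trem2 is a surface receptor of microglia and other myeloid cells that binds lipids, lipoproteins and amyloid. It has no signalling motif of its own and works through the adaptor Tyrobp (also called DAP12), whose phosphorylated tail recruits the kinase Syk. Syk in turn activates the phospholipase Plcg2, while the lipid phosphatase Inpp5d (SHIP1) opposes signalling through phosphoinositide lipids. Cd33 belongs to the sialic acid-binding lectins, most of which dampen such receptors. Bin1 and Picalm bend membranes and assemble clathrin coats in endocytosis, Sorl1 sorts App and other cargo between endosomes and the Golgi, and Abi3 takes part in actin remodelling. Human variants at or near most of these genes have been linked to the risk of Alzheimer's disease.

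Promoter sequence is shown for 3 of the genes as examples from both sides of the comparison of cell types, Trem2 and Inpp5d with higher RNA in microglia and Sorl1 with higher RNA in astrocytes. Each line gives the 250 bases before a RefSeq transcription start in GRCm38.p6, read 5′ to 3′ on the strand of the gene. Capitals mark GAGGAA, the core letters of sites for the myeloid factor PU.1, or its reverse complement TTCCTC. The Trem2 window is chr17:48346151-48346400 (plus strand), that of Inpp5d chr1:87620062-87620311 (plus strand) and that of Sorl1 chr9:42124298-42124547 (minus strand).

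Trem2: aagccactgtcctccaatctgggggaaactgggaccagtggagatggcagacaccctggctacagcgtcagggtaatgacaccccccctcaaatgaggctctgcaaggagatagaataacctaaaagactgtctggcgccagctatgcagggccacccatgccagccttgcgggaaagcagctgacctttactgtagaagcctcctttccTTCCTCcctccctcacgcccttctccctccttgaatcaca
Inpp5d: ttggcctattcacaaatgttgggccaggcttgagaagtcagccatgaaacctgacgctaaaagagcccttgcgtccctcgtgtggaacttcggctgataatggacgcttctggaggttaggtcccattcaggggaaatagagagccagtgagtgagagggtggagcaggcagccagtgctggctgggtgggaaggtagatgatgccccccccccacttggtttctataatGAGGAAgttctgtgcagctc
Sorl1: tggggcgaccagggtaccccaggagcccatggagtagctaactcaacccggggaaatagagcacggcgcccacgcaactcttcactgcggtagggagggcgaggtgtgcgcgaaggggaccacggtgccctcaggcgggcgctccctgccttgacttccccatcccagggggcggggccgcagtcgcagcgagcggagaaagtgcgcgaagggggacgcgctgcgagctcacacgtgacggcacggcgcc

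The letters begin 40 bases before the start of Trem2 and 20 bases before that of Inpp5d. The Sorl1 window holds them on neither strand. Promoter entries were at hand for 7 of the genes, 9 windows in all, and 5 of the 9 held the letters on either strand, those of Trem2, Inpp5d, Cd33, Picalm and the second start of Syk. The 2 windows of Sorl1, that of Plcg2 and that of the first start of Syk did not. Over all 32851 promoter windows of this length 23.25% held them, so a match is common and is given as a description.

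Trem2 and Tyrobp were read mainly in microglia. Over the 16 mice Trem2 stood at a median of 1841 CPM in gated microglia, with 769 CPM in the lowest mouse and 2496 CPM in the highest. In gated astrocytes its median was 168 CPM (64.8 to 485 CPM, 13 mice), in endothelial cells 151 CPM (96.0 to 240.0, 5 mice) and in mural cells 257 CPM (44.5 to 330, 6 mice). The microglia of the lowest mouse thus lay above every other type, and the 3 lower types overlapped one another. Tyrobp, the adaptor, had a median of 2483 CPM in microglia (921 to 3693) and 251 CPM in astrocytes (100.1 to 528). Its microglial range touched the mural one, which reached 1128 CPM.

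Tested within mice (edgeR quasi-likelihood test with the mouse as a block, 12 mice, Benjamini-Hochberg adjustment over 2496 genes), 9 of the 9 genes that could be tested differed between microglia and astrocytes. The background was high, since 69.2% of all genes tested passed, so the count itself says little and the sizes are given. Trem2 was 10.6-fold higher in microglia (log2 3.41 ± 0.17 SE, adjusted p = 3.8e-21) and Tyrobp 9.90-fold higher (log2 3.31 ± 0.17). Bin1 was 11.3-fold higher. Inpp5d was higher as well, from 86 UMIs in astrocytes with 1 of 13 mice at 0. It was not among the genes tested in astrocytes alone and passed the filter on low counts here through its microglial level. No exact fold is read from it (log2 interval 3.12 to 3.93). The kinase Syk and Plcg2 were higher too, both from few UMIs in astrocytes (29 and 35 over 13 mice, with 4 and 2 mice at 0). They were not among the genes tested in astrocytes alone. Here they passed the filter on low counts through their microglial level. No exact fold is read from them (log2 interval 2.08 to 3.40 for Syk and 2.31 to 3.59 for Plcg2). Cd33 and the clathrin adaptor Picalm showed the smallest excess, 4.16-fold and 4.08-fold. Sorl1 went the other way and was lower in microglia (log2 -2.23 ± 0.26, adjusted p = 5.1e-10), a level 0.213 times that of astrocytes.

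RNA set free during dissociation can place UMIs of microglial genes in other cells. The gate markers Tmem119 and C1qa, which astrocytes should lack, had medians of 134 and 176 CPM in gated astrocytes against 2033 and 2497 CPM in microglia. The astrocytic levels of Trem2, Tyrobp and Bin1 were lower than in microglia by folds inside the span of the 14 markers (7.52 to 18.4). Those marker folds depend on the gate. For Inpp5d the log2 interval (3.12 to 3.93) lay inside the span (log2 2.91 to 4.20). The part of free RNA in these levels was not tested. The folds of Cd33 and Picalm fell below that span with their 95% intervals, while that of Syk, from 29 astrocytic UMIs, had an interval (log2 2.08 to 3.40) that reached into it. The interval of Plcg2 (2.31 to 3.59) began below the span and reached into it. With each cell thinned to 500 UMIs, 51.8% of microglia and 9.15% of astrocytes held a Trem2 UMI, and 62.5% and 13.8% held Tyrobp. Unthinned, these shares were 67.7% and 15.6% for Trem2. For Cd33 the thinned shares were 32.9% and 9.15%, for Picalm 28.9% and 10.1%. A Sorl1 UMI was found in 2.29% of microglia and 9.57% of astrocytes after thinning, the reverse order.

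**Figure D1:**
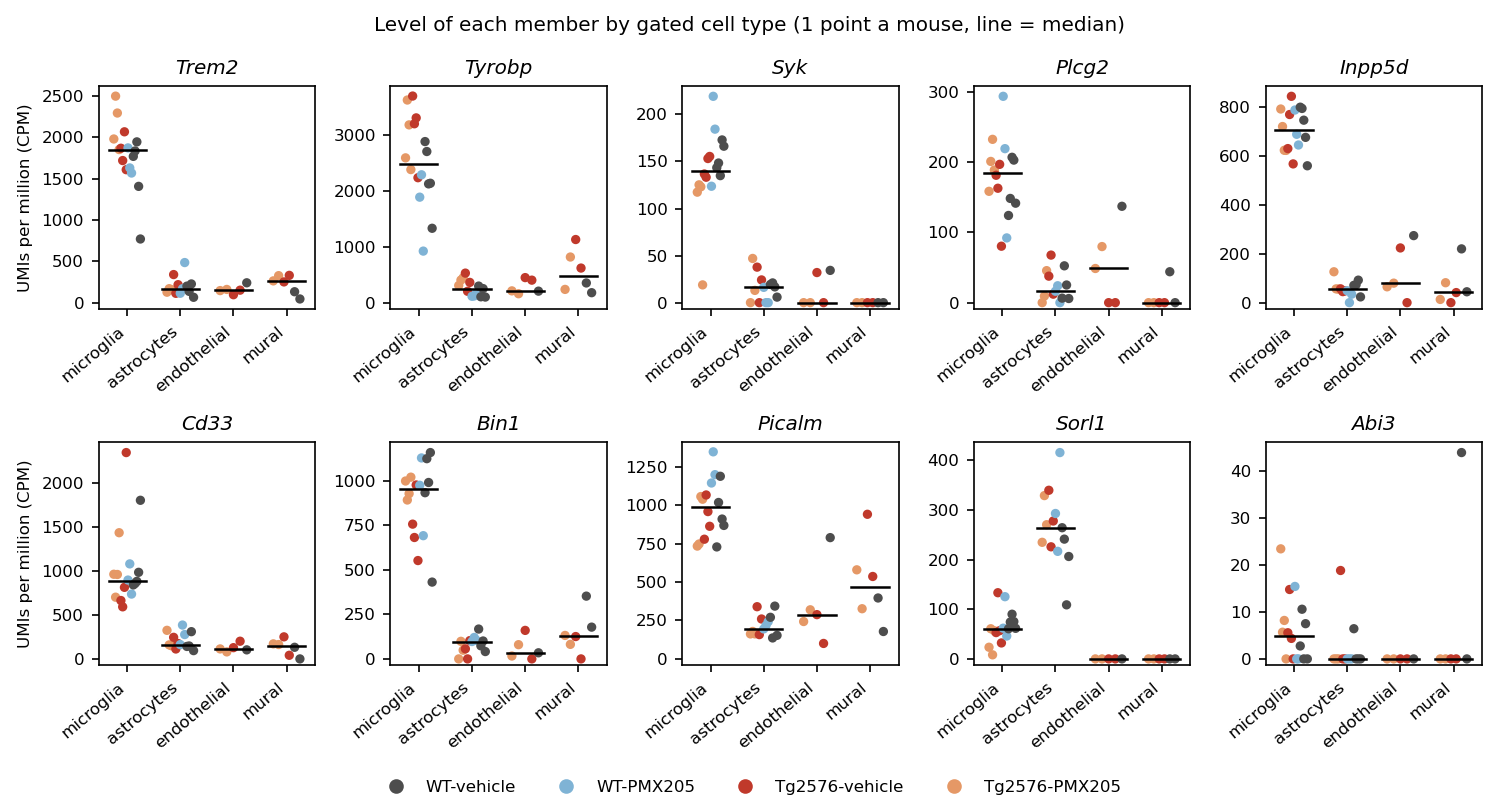
Level of each gene in CPM (vertical axis, linear, a separate scale for each gene) in 4 gated cell types, 1 point a mouse with at least 10 cells of the type, colored by group, and a line at the median. Trem2, Inpp5d, Cd33 and Bin1 in microglia lie above every mouse of the other types, while Sorl1 is highest in astrocytes at a median of 264 CPM against 60.7 CPM in microglia.

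Sorl1 in astrocytes ran from 109 to 415 CPM over 13 mice, and in microglia from 8.20 to 133 CPM over 16. The ranges touched, with Tg2576-vehicle mouse 2 the highest in microglia. No Sorl1 UMI was found in the endothelial or mural cells of any mouse. Exons of Sorl1 overlap Gm16214 on the opposite strand and those of Bin1 overlap A830052D11Rik, and since the strand setting of the counting was not given, UMIs of such pairs cannot be told apart. The 10 genes lie on 8 chromosomes, Trem2 at chr17:48346401-48354147 (plus strand) and Tyrobp at chr7:30413760-30417585 (plus strand) of GRCm38.

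Against endothelial cells (5 mice with at least 10 cells of each type, 3090 genes, 35.7% called) 8 of 8 genes tested were called higher in microglia. Bin1, Plcg2, Inpp5d and Syk had mice at 0 among the endothelial cells. They passed the filter on low counts through their microglial level, so the count itself says little. Trem2 was 14.6-fold and Tyrobp 13.1-fold higher. Bin1 had 8 UMIs in the endothelial cells, with 1 of the 5 mice at 0, so no exact fold is read from it. Its log2 95% interval was 3.19 to 5.14, and its estimate ran from 3.63 to 6.51 over 14 alternatives. Syk had 2 UMIs in the endothelial cells, with 3 of the 5 mice at 0, and passed the filter on low counts through its microglial level, so no exact fold is read from it (log2 95% interval 1.69 to 5.12). Cd33 was 6.70-fold higher. Inpp5d, from 20 endothelial UMIs with 1 of the 5 mice at 0, had a log2 95% interval of 1.77 to 3.46. Plcg2 had 8 endothelial UMIs with 2 of the 5 mice at 0, and no exact fold is read from it (log2 95% interval 0.69 to 3.19, adjusted p = 0.0084 by edgeR). Its call was lost without Tg2576-vehicle mouse 1 (adjusted p = 0.064). Picalm, which is used for endocytosis in many cells, was 2.76-fold higher in microglia and had 287.9 CPM at the median in endothelial cells. The 14 gate markers were 9.49- to 32.5-fold higher in microglia than in endothelial cells, a span that held the estimates of Trem2, Tyrobp and Bin1. The estimates of Cd33, Inpp5d, Plcg2 and Picalm lay below it, though the 95% intervals of Cd33 and Inpp5d reached into it.

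Perivascular macrophages, the resident macrophages along brain vessels, were few: 21 cells of 9 mice with 32797 UMIs. Summed over those cells, Tyrobp stood at 2043 CPM (exact Poisson 95% interval 1583 to 2594), inside the range of microglia over mice. Trem2 stood at 427 CPM there (233 to 716), below the lowest mouse of the microglia. Bin1 stood at 518 CPM (302 to 830), Cd33 at 549 CPM (325 to 867), Inpp5d at 427 CPM and Picalm at 732 CPM. Sorl1 had no UMI, which allows up to 91.5 CPM at a floor of 3 counts. These intervals cover counting error only, and no test was made on so few cells. In 16 ependymal cells Sorl1 had 8 UMIs, 177 CPM (76.4 to 349), and Trem2 and Tyrobp 1 UMI each. In 11 oligodendrocyte precursor cells Bin1 had 5 UMIs and Picalm 10, while Tyrobp had none.

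Abi3 was near the limit of the assay. It had 18 UMIs in all gated microglia, 6.06 CPM (exact Poisson interval 3.59 to 9.57), with 6 of 16 mice at 0, and only 2 UMIs in astrocytes. It passed the filter on low counts in no comparison and is not among the genes tested in the counts given here. With no filter it was not called in any of the 14 comparisons (adjusted p = 0.20 against astrocytes by edgeR and higher in the others), and no difference in it between groups was detectable at this depth. Its exons also overlap Gngt2, Phospho1 and Zfp652 on the opposite strand.

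Whether these genes changed with genotype was asked in gated microglia with both regions of a mouse summed. Trem2 stood at 1768, 1833, 1943, 1405 and 769 CPM in WT-vehicle mice 1 to 5 and at 1866, 1717, 2065 and 1607 CPM in Tg2576-vehicle mice 1 to 4. The groups overlapped, and WT-vehicle mouse 5 was the lowest of all. Tyrobp stood at 2879, 2702, 2123, 2134 and 1329 CPM in the wild-type mice and at 3693, 3198, 3303 and 2233 CPM in the transgenic ones. Here 3 of the 4 transgenic mice lay above every wild-type mouse, and mouse 4 lay among them.

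In the test (edgeR, 15 mice, 5793 genes) 0 of 9 genes passed, against a background of 0.104% of all genes (6 genes) and 189 genes at an unadjusted p under 0.05. Tyrobp differed by log2 0.51 (95% interval -0.04 to 1.06, adjusted p = 1 by edgeR) and Trem2 by log2 0.26 (-0.28 to 0.81). The other 7 estimates lay between -0.28 for Bin1 and 0.06 for Cd33, and the intervals of all but Sorl1 stayed within 1.06 on the log2 scale. The median over the 9 was -0.01, beside -0.02 over all genes tested. DESeq2 called 0 of them too.

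A single gene of the wider lists passed in this comparison. Apoe, the lipoprotein that Trem2 binds and the strongest common genetic risk locus in people, stood at 2087 to 4572 CPM in WT-vehicle and 4863 to 14155 CPM in Tg2576-vehicle microglia, with no overlap. It was 3.61-fold higher (log2 1.85 ± 0.37 SE, adjusted p = 0.031 by edgeR). This call was lost under 14 of 27 alternatives, at log2 1.56 to 2.15 over all of them. Among the losses were those without WT-vehicle mouse 5 (adjusted p = 0.93), mouse 4 (0.15), mouse 2 (0.10) or mouse 3 (0.077), without Tg2576-vehicle mouse 2 (0.17), mouse 3 (0.10) or mouse 1 (0.057) and without Tg2576-PMX205 mouse 4 (0.095). Of 38 genes listed for the TREM2-DAP12 pathway beside the members, 33 were tested and 1 rose, and of 35 other risk genes 25 were tested and 1 rose, Apoe in both lists. The median log2 fold changes were -0.10 and -0.14.

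**Figure D2:**
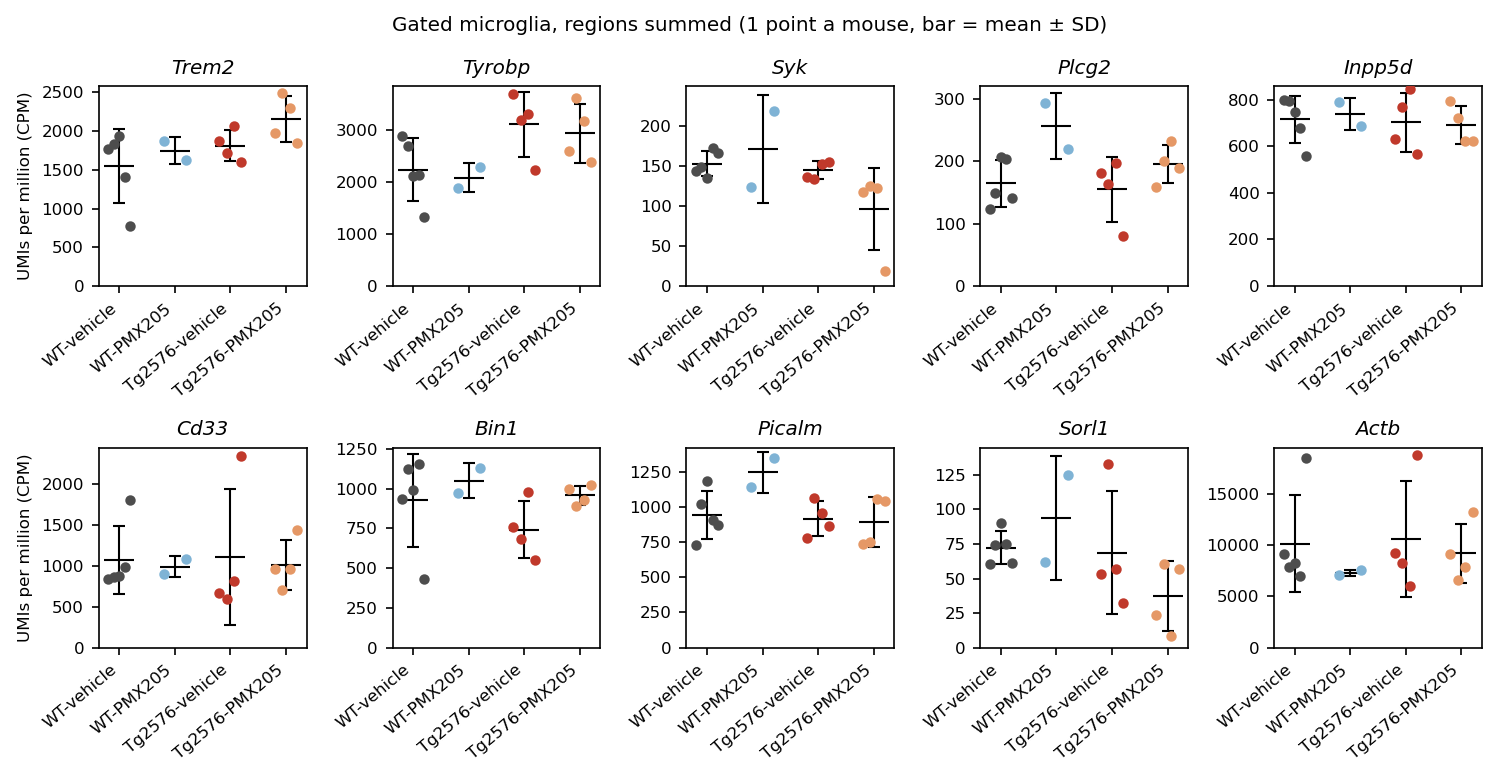
Levels in gated microglia with regions summed, in CPM (vertical axis, linear), 1 point a mouse, with the group mean and SD as bars (n = 5, 2, 4 and 4). Tyrobp is at 2233 to 3693 CPM in Tg2576-vehicle and 1329 to 2879 CPM in WT-vehicle mice, and single mice stand apart for Cd33, Syk and Actb.

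PMX205 in transgenic mice left all 9 genes short of the threshold (background 0.0345%, 2 of 5793 genes, and 146 at an unadjusted p under 0.05). Trem2 stood at 1978, 2496, 2292 and 1850 CPM in Tg2576-PMX205 mice 1 to 4, a range that overlapped the vehicle mice, and the estimate was log2 0.24 (-0.33 to 0.82). Tyrobp stood at 2588, 3622, 3178 and 2378 CPM, log2 -0.09 (-0.66 to 0.49). Bin1 was at 998, 891, 927 and 1019 CPM against 756, 681, 975 and 552 CPM with vehicle, and 3 of the 4 vehicle mice were below all treated ones. The Bin1 estimate was log2 0.34 (-0.24 to 0.93). Sorl1 had the largest estimate, log2 -0.78 (-1.90 to 0.33), from 23.5, 60.7, 8.20 and 56.6 CPM with PMX205 against 53.0, 133, 56.9 and 32.1 CPM with vehicle. These levels rest on 4, 32, 3 and 3 Sorl1 UMIs with PMX205 and on 19, 9, 13 and 6 with vehicle, and the estimate ran from -1.62 to -0.39 over 27 alternatives. None of the 33 and 25 list genes passed.

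In wild-type mice PMX205 was compared in 2 treated and 5 vehicle mice, and 0 of 9 genes passed (background 0%, 0 of 5793 genes by edgeR, with 377 at an unadjusted p under 0.05). DESeq2 called 0 of the 9 as well. Plcg2 had the largest estimate, log2 0.64 (-0.23 to 1.51), from 294 and 219 CPM with PMX205 against 124 to 207 CPM in vehicle mice. Both treated mice lay above all 5 vehicle mice, a difference that the test did not call. WT-PMX205 mouse 3, not in the fit, lay below them all at 92.1 CPM, from 2 UMIs in 15 cells. How many of the 5793 genes separated the 2 treated from the 5 vehicle mice was not counted. Trem2 differed by log2 0.16 (-0.53 to 0.85) and Tyrobp by log2 -0.12 (-0.82 to 0.58). The test of whether the PMX205 effect differed between genotypes passed for 0 of 9 genes (background 0%, 270 genes at an unadjusted p under 0.05), with 95% intervals of -0.81 to 0.99 for Trem2 and -2.94 to 0.62 for Sorl1.

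**Figure D3:**
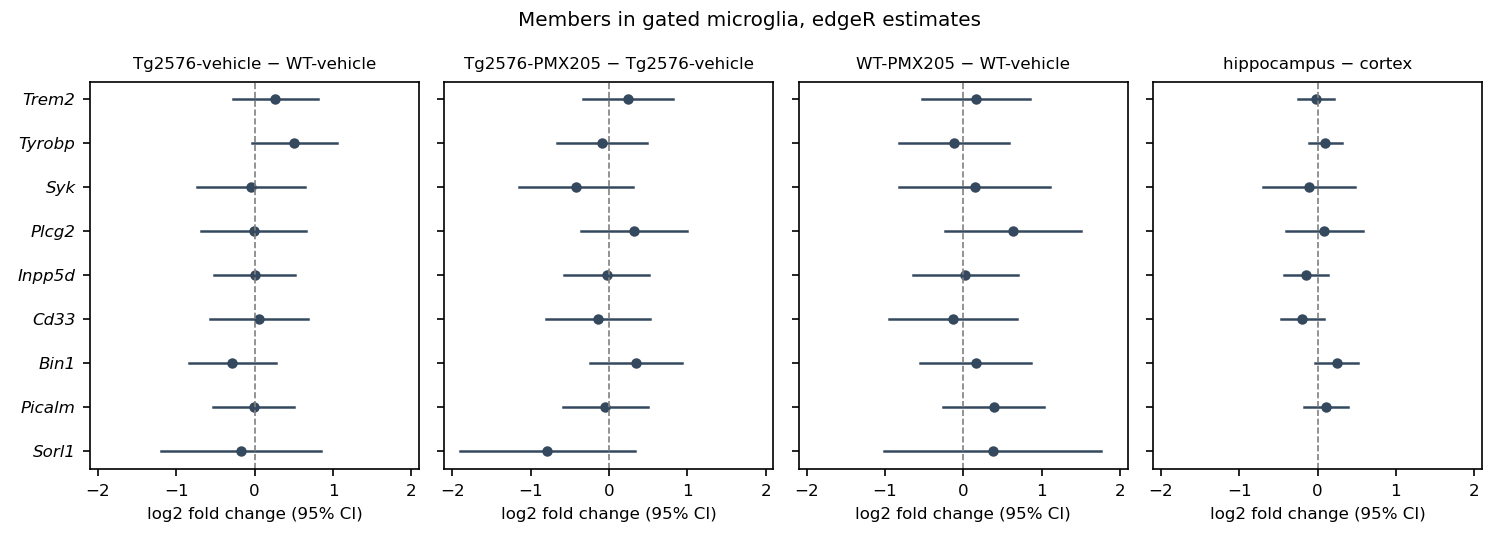
Estimates for gated microglia from edgeR as log2 fold changes (horizontal axis, points) with 95% confidence intervals (lines) for 4 comparisons. Every interval crosses 0, and that of Sorl1 is the widest in the 3 comparisons where it was tested.

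Within hippocampus 4 WT-vehicle, 2 Tg2576-vehicle and 4 Tg2576-PMX205 libraries had at least 20 microglia. The receptor and its adaptor were higher there in both transgenic vehicle mice than in all wild-type mice. The share of all genes tested that separated these 2 mice from the 4, in either direction, was not counted. Trem2 stood at 1561, 1464, 1706 and 1151 CPM in WT-vehicle mice 1 to 4, at 1835 and 2425 CPM in Tg2576-vehicle mice 1 and 3, and at 2302, 2335, 2296 and 2158 CPM in the PMX205-treated transgenic mice. Tyrobp stood at 3121, 2722, 2074 and 1706 CPM, then at 3461 and 3843 CPM, then at 2962, 3831, 3074 and 2999 CPM. The genotype estimates were log2 0.62 for Trem2 (0.11 to 1.14, unadjusted p = 0.019) and log2 0.68 for Tyrobp (0.20 to 1.16, unadjusted p = 0.0058). Over 22 alternatives they ran from 0.40 to 0.87 for Trem2 and from 0.27 to 0.85 for Tyrobp. The transgenic arm had 2 mice, and the labels of mouse 3 conflict. Without the mice of conflicting labels the estimates were 0.40 and 0.55, and without Tg2576-vehicle mouse 1 they were 0.87 and 0.80. After adjustment in edgeR over 2898 genes neither passed (adjusted p = 1 and 0.68), and 0 of 8 genes tested were called (background 0.104%, 3 genes, with 94 at an unadjusted p under 0.05). Cd33 went the other way at log2 -0.65 (-1.32 to 0.03), from 871, 950, 1004 and 1171 CPM in wild-type to 559 and 636 CPM in transgenic mice. DESeq2 also called 0 of the 8.

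PMX205 in hippocampus gave 0 of 8 calls (background 0.0345%, 1 gene, with 73 at an unadjusted p under 0.05). Estimates were log2 0.04 for Trem2 (-0.48 to 0.56) and log2 -0.24 for Tyrobp (-0.72 to 0.24). Syk was at 0 CPM in the lowest treated mouse, a library with 22 microglia.

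In cortex, with 15 mice and 3772 genes, 0 of 9 genes passed for genotype (background 0.0265%, 1 gene, with 108 at an unadjusted p under 0.05) and 0 of 9 for PMX205 in transgenic mice (background 0%, 74 genes at an unadjusted p under 0.05). Trem2 differed with genotype by log2 0.12 (-0.51 to 0.74) and Tyrobp by log2 0.49 (-0.14 to 1.13). The hippocampal and cortical genotype estimates for Trem2 had overlapping intervals, and their difference was not tested.

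Between the regions of the same mouse (10 mice, mouse as a block, 1606 genes) 0 of 8 genes differed (background 0.125%, 2 genes, with 149 at an unadjusted p under 0.05). These intervals were narrower than those of the group comparisons. Trem2 in hippocampus differed from cortex by log2 -0.02 (-0.25 to 0.21) and Tyrobp by log2 0.10 (-0.11 to 0.31). The largest single estimate was that of Bin1, log2 0.25 (-0.03 to 0.52). DESeq2 called none of the 8.

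Microglia with genes of the disease-associated state (DAM, cells that turn on a lipid and phagocytosis programme near plaques) were chosen as those with UMIs of at least 2 of 7 DAM genes (Cst7, Lpl, Itgax, Clec7a, Spp1, Axl and Csf1) after thinning to 500 UMIs. None of the 10 genes was used in this gate. No DAM-gated cell was found in any of the 5 WT-vehicle mice, 0 of 800 microglia. The floor of 3 counts allows a share of up to 0.375% of cells with such UMIs after thinning, a limit that covers counting error over the pooled cells only and not the spread between mice. In WT-PMX205 mice 1 of 124 was found. The share was 10.3, 12.1, 4.32 and 7.39% in Tg2576-vehicle mice 1 to 4 (median 8.84%) and 11.3, 16.5, 5.33 and 1.72% in Tg2576-PMX205 mice 1 to 4 (median 8.30%). The transgenic groups overlapped, and Tg2576-PMX205 mouse 2 gave 72 of the 105 DAM-gated cells of its group, against 64 cells in all of Tg2576-vehicle. That mouse, Tg2576-PMX205 mouse 3 and Tg2576-vehicle mouse 4 had many barcodes that differed from another by the first base alone (48.7, 39.05 and 71.3%). Whether a cell was counted more than once there was not tested. The comparison with other microglia of the same animal used the 5 transgenic mice with at least 10 cells of each class.

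Tyrobp was higher in DAM-gated cells in 4 of the 5 mice. In the order Tg2576-vehicle mice 1 and 4 and Tg2576-PMX205 mice 1, 2 and 3, DAM-gated cells held 5108, 1758, 3938, 6905 and 5782 CPM and the other microglia 3475, 2271, 2294, 2730 and 3017 CPM. It was the only one of 8 genes tested to pass (log2 0.69 ± 0.21 SE, adjusted p = 0.036 by edgeR, background 2.47%, 62 of 2506 genes). The call was lost under DESeq2 (adjusted p = 0.075), with no filter on low counts (0.91), with a stricter gate (0.15), without the mouse block (0.42) and without Tg2576-vehicle mouse 1 (0.25), Tg2576-PMX205 mouse 1 (0.21), mouse 2 (0.49) or mouse 3 (0.28), in each case with the same sign. The range of its log2 difference over 16 alternatives was 0.29 to 1.02.

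Trem2 was higher in the DAM-gated cells of 5 of 5 mice, at 3078, 1612, 2363, 4287 and 3150 CPM against 1680, 1606, 1894, 2009 and 2239 CPM. In Tg2576-vehicle mouse 4 the difference was within 10 CPM. Its log2 difference of 0.59 (0.17 to 1.0) did not pass (adjusted p = 0.15 by edgeR). Without that mouse, the 1 of the 5 with over 10000 CPM of Actb, it was 0.76 with an adjusted p of 0.00024. It also passed without thinning for the gate (log2 0.74, 6 mice). At a UMI minimum of 1000 (log2 0.93) and with a higher cell minimum (1.05) it passed too, but these fits held 2 mice each. Over 16 alternatives the difference ran from 0.19 to 1.05.

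The other 6 genes tested had estimates below 0, and none of them passed. Cd33 was lower in DAM-gated cells of 5 of 5 mice, at 419, 2344, 525, 346 and 752 CPM against 701, 2346, 1058, 798 and 973 CPM, and the difference of log2 -0.70 (-1.19 to -0.21) had an adjusted p of 0.14 by edgeR. It passed without Tg2576-vehicle mouse 4 (log2 -0.82, adjusted p = 0.024), in which both classes had about equal levels, and with no filter on low counts (log2 -1.08, adjusted p = 0.039), where it was the 1 gene of the list called in place of Tyrobp. Syk (log2 -1.10, 14 UMIs in DAM-gated cells), Inpp5d (-0.54) and Picalm (-0.47) were also lower in 5 of 5 mice, and Plcg2 (-0.37) and Bin1 (-0.24) in 4 of 5, none past the threshold. In Tg2576-PMX205 mouse 1 the Inpp5d levels were close, 788 against 793 CPM. How many of the 2506 genes tested were lower in 5 of 5 mice was not counted. The median over the 8 genes was -0.42, beside -0.09 over all genes tested. DAM-gated cells held more UMIs than other microglia at the median in 4 of the 5 mice, by up to 1136 against 781.5 in Tg2576-vehicle mouse 1, and the part of depth was not tested.

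**Figure D4:**
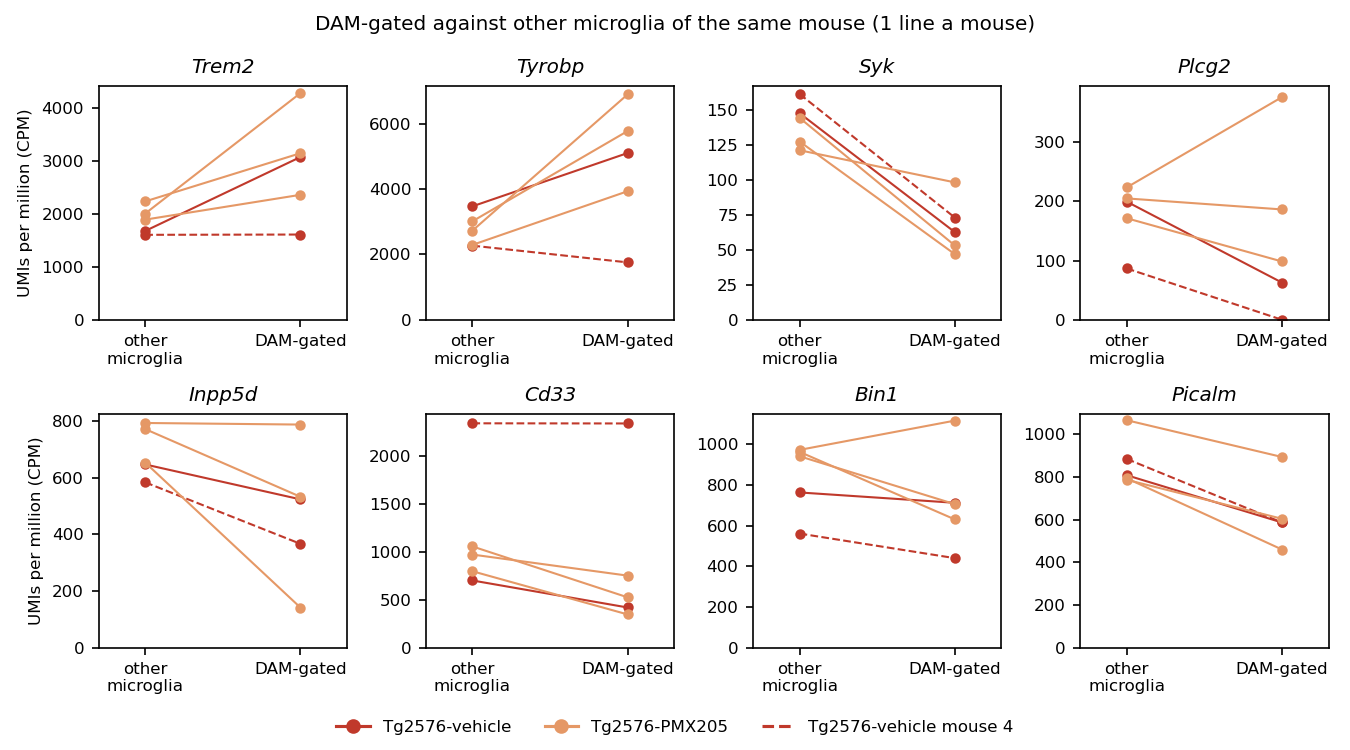
Levels in CPM (vertical axis, from 0) of 8 genes in DAM-gated and other microglia, 1 line a mouse for the 5 mice with at least 10 cells of each class, the dashed line marking Tg2576-vehicle mouse 4. Tyrobp is higher in the DAM-gated cells of 4 of 5 mice, and Syk, Inpp5d, Cd33 and Picalm are lower in 5 of 5, of which only Tyrobp passed the test.

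Among the wider lists, 1 of 23 tested pathway genes and 4 of 20 tested risk genes passed in DAM-gated cells, Apoe counting in both, beside 2.47% of all genes tested. The medians of the lists were log2 -0.24 and -0.25, below the -0.09 over all genes, while 3 of the 4 genes called were higher. The protease Ctsb rose 2.19-fold, Apoe 2.01-fold and the lysosomal growth factor Grn 1.69-fold, while the transcription factor Mef2c fell (log2 -0.93, adjusted p = 0.037 by edgeR). Apoe was higher in 4 of the 5 mice. The Ctsb call was lost under 2 of 16 alternatives and that of Apoe under 4, among them without Tg2576-PMX205 mouse 2 (adjusted p = 0.085) and without Tg2576-vehicle mouse 1 (0.079). The calls of Mef2c and Grn were lost under 10 and 8, among them without Tg2576-PMX205 mouse 1 (0.38 and 0.14), mouse 2 (0.10 and 0.29) or mouse 3 (0.16 and 0.18) and without Tg2576-vehicle mouse 1 (0.079 and 0.56). All 4 kept their sign throughout.

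In the 15 mice fitted, Cd33 differed between mice along with Actb, the cytoskeletal actin gene. Actb stood at 13195 to 18836 CPM in microglia of WT-vehicle mouse 5, Tg2576-vehicle mouse 4 and Tg2576-PMX205 mouse 4, and at 5967 to 9224 CPM in the other 12 mice fitted. Cd33 stood at 1803, 2346 and 1435 CPM in those 3 mice and at 592 to 1080 CPM in the other 12, with no overlap. Inpp5d was at 560 to 623 CPM in the 3 against 623 to 844 CPM, and WT-vehicle mouse 5 held the lowest Trem2, Tyrobp and Bin1 (431 CPM) of the 15. The homeostatic marker Tmem119 stood at 714, 1109 and 1000.5 CPM in the same 3 mice. Over all 16 mice it ran from 714 to 3058 CPM with a median of 2033 CPM, and other mice also lay beneath the median. Each of 3 groups held 1 such mouse. WT-PMX205 mouse 3, which entered no fit of microglia, had 15942 CPM of Actb. Its Cd33 stood at 737 CPM in 15 cells, inside the range of the other 12 mice, so it did not share the high Cd33.

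**Figure D5:**
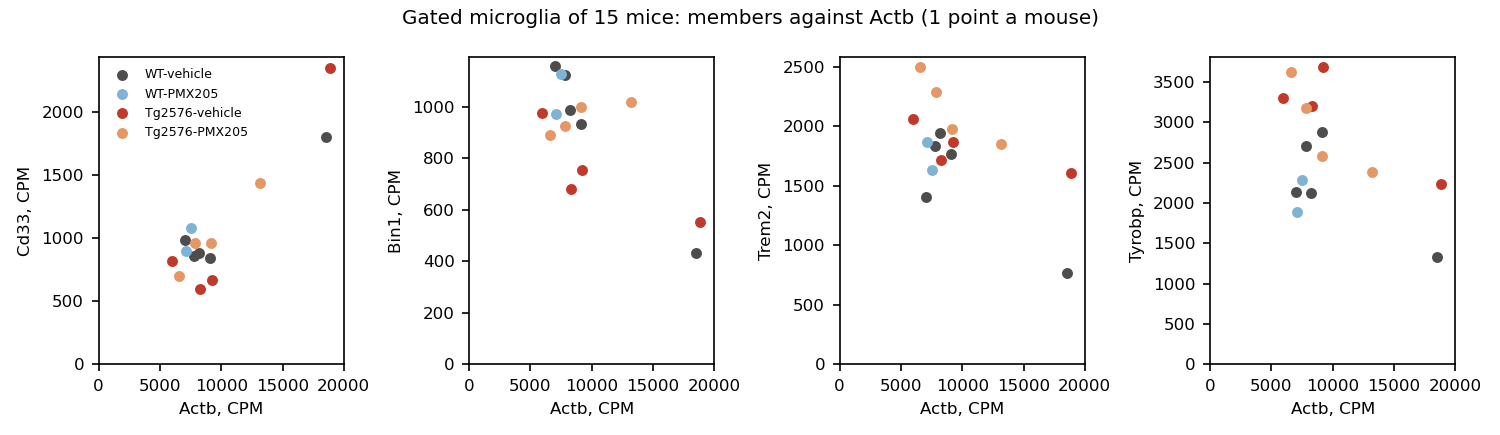
Cd33, Bin1, Trem2 and Tyrobp against Actb in gated microglia of 15 mice, both axes in CPM and linear, 1 point a mouse colored by group. The 3 mice above 10000 CPM of Actb hold the 3 highest Cd33 values, 1435 to 2346 CPM.

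With these 3 mice left out, an alternative chosen after seeing the data, the Tyrobp genotype estimate in summed regions stayed at log2 0.51 with an unadjusted p of 0.0036, and it still did not pass (adjusted p = 0.46 by edgeR). Cd33 moved from log2 0.06 to -0.31 and Trem2 from 0.26 to 0.16, none of them called. What sets these mice apart was not tested, and 2 of the 3 were among the 4 mice with many barcodes that differ by the first base.

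Astrocytes were compared by genotype and treatment in 12 mice and 3971 genes, for the 6 genes with enough UMIs. None passed for genotype (background 0%, 183 genes at an unadjusted p under 0.05) or for PMX205 in transgenic mice (background 0%, 175 such genes), and DESeq2 called none of the 6 in either. Sorl1 stood at 264, 241, 109 and 206 CPM in WT-vehicle mice 1 to 4 and at 339, 226 and 278 CPM in Tg2576-vehicle mice 1 to 3, log2 0.41 (-0.28 to 1.11). With PMX205 it stood at 235, 329 and 270 CPM, log2 0.02 (-0.70 to 0.74). Tyrobp in astrocytes was at 100.1 to 296 CPM in WT-vehicle and 203 to 528 CPM in Tg2576-vehicle mice (log2 0.92, unadjusted p = 0.0095, adjusted 0.92 by edgeR), and it was not called.

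Genes whose level followed Trem2 most closely over the 15 mice, by Pearson's r of log2 CPM among 5793 genes, were the ribosomal genes Rps14 (0.89) and Fau (0.88), the lysosomal hydrolases Naaa (0.86) and Hexa (0.84), and Sh3bgrl3 (0.86). For Bin1 they were Itgb5 (0.89), Camta2 (0.87), Atp6ap1 (0.86), Ckb (0.86) and Tnfaip8l2 (0.85). The points share library, depth and the high-Actb mice, and no p is given.

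The wider lists were also tested in the contrasts of cell type. Of 22 tested TREM2-DAP12 pathway genes 16 were higher and 5 lower in microglia than in astrocytes, at a median log2 difference of 1.95 beside 0.04 over all genes, of which 69.2% passed in either direction. Vav1, an exchange factor downstream of Syk, was 14.7-fold higher. Among 21 other risk genes 13 were higher and 5 lower (median 0.65), with Spi1 (the gene of PU.1) 13.8-fold higher and the extracellular chaperone Clu, Fermt2 and Spry2 lower in microglia (log2 -4.61, -3.99 and -3.58). Against endothelial cells, where 35.7% of all genes passed, 14 of 23 pathway genes were higher and 0 lower (median 2.49), and of 22 risk genes 12 were higher and 4 lower (median 1.77), beside a median of 0.23 over all genes. Vav1, Spi1 and Ms4a6d were among the higher and Fermt2 and Adamts1 among the lower, with few endothelial UMIs behind the first 3. The Adamts1 call was lost with a higher cell minimum (log2 -1.97, adjusted p = 0.094 by edgeR).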

How the data were processed

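The authors counted UMIs with kb count (kallisto bustools, SureCell setting) on mm10 with GENCODE annotation and deposited raw counts per barcode, 1 table per library. The submitters' processing notes also name bcl2fastq 2.18.0.12 and Seurat. Strand use is not given in the sources used here. Cells were kept with at least 500 UMIs, at least 300 genes and at most 5% mitochondrial UMIs, and Scrublet (scanpy 1.11.5) marked the top 6% per library as doublets. A cell was gated to a type with at least 3 of its markers and a lead of 3 over every other list, and no member is a marker. Counts were summed per mouse and cell type (at least 20 cells, 10 for endothelial and DAM-gated cells) and tested with edgeR 4.0.16 (filterByExpr, TMM, quasi-likelihood, all genes, adjusted p threshold 0.05) in R 4.3.3. DESeq2 1.42.0 was an alternative. The mouse was the block where both classes came from the same animal, which is where the pairing comes from. CPM is UMIs of a gene per 1000000 UMIs of the same cells. Scripts used Python 3.11.15, and the test was tested on simulated data. Other alternatives were no filter, 1000 UMIs, doublets kept, other gates, shared barcodes or conflicting labels left out, terms for strain label and first-base mice, higher cell minimums, and each mouse left out.

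The members and lists were chosen with earlier results of these data known. Named genes were the 10 members in each comparison that tested them, list genes past the threshold (at most 5 a comparison by log2 fold change) and the 5 genes most like Trem2 and Bin1. Promoters are RefSeq's for GRCm38.p6. Intervals on single counts cover counting error only.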

Additional observations from a re-analysis of the deposited data

Results flagged for a closer look

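Over 81 groups of 4 or 5 samples, 6 held a sample that stood apart from the rest by Dixon's criterion, and chance alone gives about 1 in 20. Cd33 accounted for 4 of the 6. In microglia with regions summed it stood at 2346 CPM in Tg2576-vehicle mouse 4 (nearest mouse 814 CPM) and at 1803 CPM in WT-vehicle mouse 5 (nearest 984 CPM). In cortex alone the same mice stood at 2628 CPM (nearest 997 CPM) and 1818 CPM (nearest 871 CPM). Both also had high Actb, and the part of this in the values was not tested. Syk in Tg2576-PMX205 mouse 4 was at 18.9 CPM with the nearest mouse at 117 CPM, in a mouse with 58 gated microglia. Tyrobp in hippocampus of Tg2576-PMX205 mouse 2 was at 3831 CPM with the nearest at 3074 CPM.

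Single barcodes that failed the cell filter held large shares of a gene's UMIs in 3 hippocampal libraries. In Tg2576-PMX205 mouse 4, 229 of the library's 335 Trem2 UMIs (68.4%) sat in 1 barcode with 477 UMIs over 16 genes. In WT-PMX205 mouse 2, 42 of 76 Cd33 UMIs (55.3%) sat in 1 barcode with 70 genes, and in WT-PMX205 mouse 3, 18 of 34 Inpp5d UMIs (52.9%) sat in 1 with 74 genes. None of these barcodes entered a comparison.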

How the results depend on the processing

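The members' results were mostly stable in call. Over 115 tested results and 2669 alternative values 2650 kept their call, 11 lost it, 8 gained it and 0 reversed, while 217 estimates with no call on either side changed sign. In every comparison of genotype, treatment or region 0 members passed under every alternative run. All 9 members stayed called against astrocytes, and 7 to 8 against endothelial cells with a mouse left out, where Plcg2 was also lost at a UMI minimum of 1000 (adjusted p = 0.058 by edgeR) and with a stricter gate (0.20). Of 80 alternative levels 1 moved by over 1 SD, that of Trem2 in mural cells (median 136 CPM at a UMI minimum of 1000).

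Members called in DAM-gated cells (1) numbered 0 by DESeq2, 0 with a stricter gate, 0 with no mouse block, 2 at a UMI minimum of 1000 and 2 with a higher cell minimum (2 mice left in each), 2 without thinning, 3 without the mice of high Actb and 0 to 3 with a mouse left out. With no filter the count stayed at 1, but the gene was Cd33 and not Tyrobp. All genes called there (62) numbered 122 at 1000 UMIs, 99 without thinning, 12 with no mouse block, 116 without the mice of high Actb and 12 to 116 with a mouse left out.

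Counts of all genes called moved more. For genotype with regions summed (6) they were 12 with no filter, 3 without the mice of conflicting labels, 10 without the mice of high Actb and 2 to 8 with a mouse left out. For PMX205 in transgenic mice (2) they were 1 by DESeq2, 0 at 1000 UMIs, 0 without shared barcodes, 1 without conflicting labels, 0 with first-base mice as a term and 0 to 2 with a mouse left out. PMX205 in wild-type mice (0) and the difference of its effects (0) gave 1 each with no filter and 0 to 0 with a mouse left out. Genotype in cortex (1) gave 5 by DESeq2, 9 with no filter, 0 at 1000 UMIs, 3 with a stricter gate, 2 without shared barcodes, 0 with a higher cell minimum, 6 with a strain term, 3 with a first-base term, 0 without the mice of high Actb and 1 to 6 with a mouse left out. PMX205 in cortex (0) gave 2 with no filter, 2 with a strain term and 0 to 1 with a mouse left out. Genotype in hippocampus (3) gave 7 with no filter, 1 at 1000 UMIs, 5 with doublets kept, 0 with a stricter gate, 0 with a looser gate, 1 without shared barcodes, 1 with a higher cell minimum, 8 without conflicting labels, 6 with a first-base term, 6 without the mice of high Actb and 1 to 10 with a mouse left out. PMX205 in hippocampus (1) gave 0 by DESeq2, 7 with no filter, 0 with a stricter gate, 0 with a looser gate, 0 without shared barcodes, 7 with a higher cell minimum, 13 without conflicting labels, 4 with a strain term, 2 with a first-base term and 0 to 12 with a mouse left out. In hippocampus the Tg2576-vehicle arm held 2 mice, so leaving out either one or the conflicting labels left 1, and the higher cell minimum left 1 WT-vehicle mouse. A lone mouse was then assumed to vary like the other groups. Region (2) gave 6 by DESeq2, 6 with no filter, 0 at 1000 UMIs, 7 with doublets kept, 1 with a stricter gate, 6 with a looser gate, 0 with a higher cell minimum, 0 with no mouse block and 0 to 8 with a mouse left out. Against astrocytes (1727) the count was 4515 with no filter and 1559 to 2010 with a mouse left out, and against endothelial cells (1103) it was 1821 and 945 to 1234. In astrocytes genotype (0) gave 1 with a higher cell minimum, 2 without conflicting labels and 0 to 2 with a mouse left out, and PMX205 (0) gave 2 without conflicting labels, 1 with a strain term, 6 with a first-base term and 0 to 2 with a mouse left out. The causes were not tested.

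A gate of at least 3 DAM genes left too few cells and was not run. Replicate numbers of different groups name different mice and pair nothing across groups, and the mouse block changed no other member's call. The fits of summed regions held 2 to 5 mice a group and 51 to 436 microglia a mouse. The 95% intervals of their genotype estimates ended at 0.81 for Trem2, 1.06 for Tyrobp and 0.52 for Inpp5d on the log2 scale. Changes inside such intervals were not excluded.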
